A study of Mus musculus with 26 samples.

Results

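The 10 acute phase genes described here are Saa1, Saa2, Saa3, Orm1, Orm2, Hp, Itih4, Lcn2, Apcs and Socs3, taken by name from the 36883 gene names of a liver RNA-seq study. All 10 were found and all 10 passed the filter on low counts. The livers came from Eu-MYC mice, which carry a Myc transgene whose expression the immunoglobulin heavy chain enhancer directs to B-lineage cells. All 4 groups carried the transgene and no mice without it were analysed here. Mice had been kept in 12 hours of light and 12 hours of dark (12:12) or for 8 weeks in chronic jet lag lighting (CJL): 8 females and 6 males in 12:12, and 8 females and 4 males in CJL. The labels do not state age, health, the shift schedule or the hour of collection. They number the libraries of a group without saying more of their origin, so p-values measure the spread between these libraries.

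The acute phase response is the change in protein secretion by the liver during infection, injury or inflammation. Cytokines of the interleukin 6 family act through STAT3, and interleukin 1 and tumour necrosis factor act through NF-kB and C/EBP factors, to raise transcription of genes for secreted defence and carrier proteins in hepatocytes. Among those genes, Saa1 and Saa2 encode serum amyloid A proteins carried on high density lipoprotein, and Orm1 and Orm2 encode alpha-1-acid glycoproteins. Hp encodes haptoglobin, which binds free haemoglobin, Itih4 encodes a heavy chain of the inter-alpha-trypsin inhibitor family, and Apcs encodes serum amyloid P, the main acute phase pentraxin of the mouse. Lcn2 encodes lipocalin 2, which binds bacterial siderophores and is also stored in neutrophil granules, and Saa3 is made by macrophages and fat as well as liver. Socs3 encodes the inhibitor that STAT3 induces and that shuts off signalling by interleukin 6 family receptors.

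Promoters of Saa1 and Saa2 are shown because these neighbouring genes varied together, and those of Lcn2 and Apcs because they were the members that stood highest in livers with B-lineage transcripts. Each run holds 300 bases around the RefSeq transcription start in GRCm38.p6, read 5′ to 3′ on the gene's strand, with positions counted from that start. Capitals mark matches, on either strand, to TTCNNNGAA (STAT), TTNNGNAA or its complement TTNCNNAA (C/EBP), and GGG and CC with 5 bases of any kind between them, or the complement of that (NF-kB). No capitals of different motifs overlap.
Saa1, chr7:46742931-46743230, minus strand: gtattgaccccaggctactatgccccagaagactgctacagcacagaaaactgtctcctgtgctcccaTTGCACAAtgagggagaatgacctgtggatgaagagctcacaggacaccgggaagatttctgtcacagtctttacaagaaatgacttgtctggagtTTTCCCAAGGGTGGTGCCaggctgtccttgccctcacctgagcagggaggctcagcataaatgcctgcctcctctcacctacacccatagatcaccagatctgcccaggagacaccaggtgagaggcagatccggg
Saa2, chr7:46751583-46751882, plus strand: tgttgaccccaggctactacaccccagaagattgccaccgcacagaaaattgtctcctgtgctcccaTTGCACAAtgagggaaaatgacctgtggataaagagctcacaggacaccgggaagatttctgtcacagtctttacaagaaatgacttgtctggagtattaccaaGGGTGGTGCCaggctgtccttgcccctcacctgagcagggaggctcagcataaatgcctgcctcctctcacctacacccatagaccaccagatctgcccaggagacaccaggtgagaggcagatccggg
Lcn2, chr2:32387690-32387989, minus strand: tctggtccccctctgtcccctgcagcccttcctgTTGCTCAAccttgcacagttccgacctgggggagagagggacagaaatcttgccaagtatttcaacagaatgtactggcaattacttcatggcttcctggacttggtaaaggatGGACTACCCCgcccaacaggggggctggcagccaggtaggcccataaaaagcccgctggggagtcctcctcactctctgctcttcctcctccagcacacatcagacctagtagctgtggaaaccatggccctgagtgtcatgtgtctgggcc
Apcs, chr1:172895005-172895304, minus strand: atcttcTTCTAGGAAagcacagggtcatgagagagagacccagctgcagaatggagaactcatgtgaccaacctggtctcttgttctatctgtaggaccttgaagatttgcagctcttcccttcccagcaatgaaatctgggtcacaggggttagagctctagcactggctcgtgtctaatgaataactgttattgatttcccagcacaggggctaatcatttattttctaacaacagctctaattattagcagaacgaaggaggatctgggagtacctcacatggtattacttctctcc
The Saa1 and Saa2 windows were identical at 287 of 299 aligned bases (96.0%). Both held the C/EBP match TTGCACAA, at position -182 in Saa1 and -183 in Saa2, and the NF-kB match GGGTGGTGCC, and Saa1 held a second C/EBP match, TTTCCCAA at -86. The Lcn2 window held a C/EBP match at -216 and an NF-kB match at -102, and the Apcs window held only a STAT match, at -244. Of the 8 members with a promoter in the table, 3 held the STAT letters, 5 the C/EBP letters and 5 the NF-kB letters, against 8.3%, 40.7% and 50.8% of 32851 mouse promoters. A match of letters is not a measured binding site.

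The 26 libraries held 45364552 to 50242014 counts, and 3 counts stood for at most 0.0661 CPM (counts per 1000000 of the library total), a limit that covers counting error only. Hepatocyte transcripts dominated every library, the 10 hepatocyte markers summing to 137980 to 249394 CPM. Cd79a, which encodes a chain of the B cell receptor, was at 8 CPM or more in 8 libraries (14.5 to 144 CPM) and at 1.28 to 2.95 CPM in the other 18. These 8 were 2 of the 8 females in 12:12, 3 of the 8 females in CJL, 2 of the 6 males in 12:12 and 1 of the 4 males in CJL. In bulk liver, fewer cells of a type and less RNA per cell cannot be told apart.

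Together the 10 genes took from 0.412% to 0.98% of a library's counts, with a median of 0.565%. Per kilobase of exon, their median levels were led by Hp at 1034 CPM per kb, Orm1 at 907 and Itih4 at 874, whose ranges over the 26 libraries overlapped. Apcs followed at 103 CPM per kb, and its highest library, 261, lay below the lowest of Itih4, 550. Orm2 was at 36.4 CPM per kb, Saa1 at 8.34, Lcn2 at 7.33, Saa2 at 4.99, Saa3 at 0.868 and Socs3 at 0.812. From Apcs down, the ranges of neighbours in this order overlapped.

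The Saa genes lie together on chromosome 7 of GRCm38 (Saa3 at chr7:46711998-46715700, Saa1 at chr7:46740497-46742980, Saa2 at chr7:46751790-46754313). Saa1 ranged from 5.99 to 147 CPM with a median of 20.7, and Saa2 from 3.85 to 92.5 with a median of 12.6. For both genes the highest library was female CJL library 2 and the lowest was male CJL library 8. The longest coding transcripts of Saa1 and Saa2 were identical at 94.4% of aligned bases (572 of 606), so reads may have been split between them, and the ratio of Saa1 to Saa2 ran from 0.929 to 3.05. Saa3 stayed between 0.934 and 7.75 CPM.

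Orm1 (chr4:63344560-63348163) and Orm2 (chr4:63362449-63365878) are also neighbours, and 705 of 775 aligned transcript bases (91.0%) were identical. Orm1 stayed within 440 to 1210 CPM. Orm2 ran from 10.6 to 301 CPM, so that the ratio of Orm1 to Orm2 fell between 4.02, in male 12:12 library 3, and 56.3, in male 12:12 library 6. Hp (chr8:109575128-109579172) ranged from 941 to 3397 CPM and Itih4 (chr14:30886476-30902353) from 2030 to 5123. Lcn2 (chr2:32384633-32388252) had the widest range of the 10 as a ratio of highest to lowest, 110-fold from 1.63 to 180 CPM, and Apcs (chr1:172893961-172895041) ran from 32.9 to 254. Socs3 (chr11:117966079-117970047) lay between 1.06 and 6.35 CPM.

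The within-group standard deviation on the log2 CPM scale was 1.57 for Lcn2, higher than that of 97.4% of the 16892 genes tested. It was 1.19 for Orm2, 1.08 for Saa1, 1.02 for Saa2 and 0.80 for Apcs, against a median of 0.42 over all genes. Hp at 0.42, Orm1 at 0.41 and Itih4 at 0.30 varied no more than the median gene. The most abundant members therefore had the smallest relative spread between livers, and Lcn2, Orm2 and the 2 liver Saa genes the widest.

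**Figure D1:**
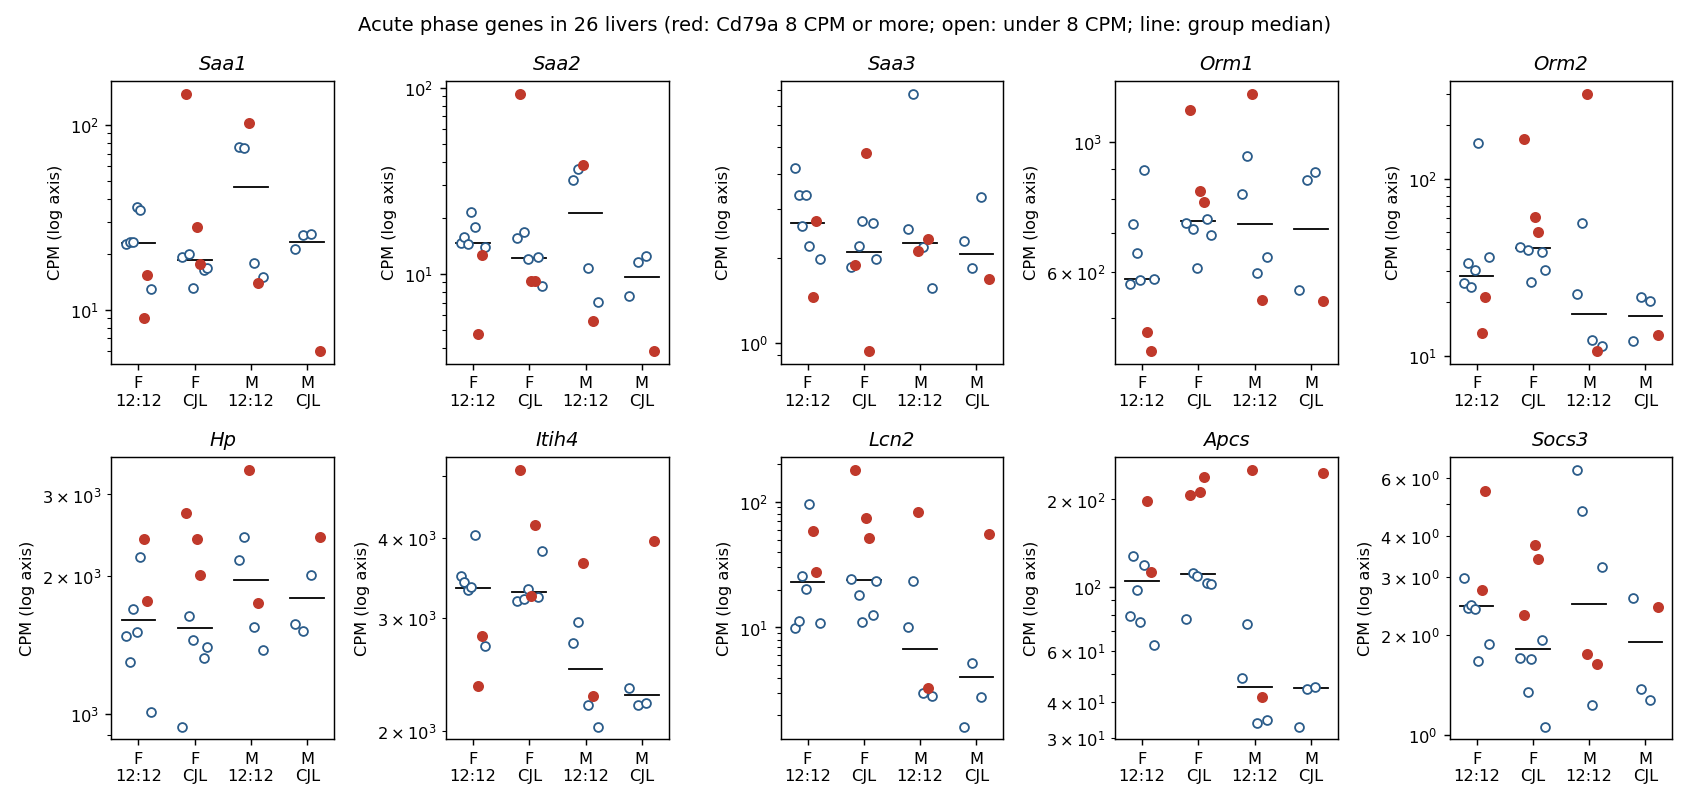
CPM (log axis) of each acute phase gene in the 26 livers, by sex (F, M) and lighting, with the group median as a line; filled red points are the 8 libraries with Cd79a of 8 CPM or more and open points the other 18. For Apcs 6 of the 8 red points lie above every open point of their sex, and for Saa1 and Saa2 the red points hold both the highest and the lowest value.

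High values gathered in a few livers. Female CJL library 2 and male 12:12 library 3 were each among the 3 highest libraries for 7 of the 10 genes. Both had Cd79a above 8 CPM, at 14.5 and 45.6 CPM. Male 12:12 library 2, with Cd79a of 1.66 CPM, was among the 3 highest for 4 genes, including the highest Saa3. Female 12:12 library 5, with Cd79a of 2.95 CPM, was among the 3 highest for Orm2 (159 CPM), Lcn2 (95.6 CPM) and Itih4 (4042 CPM).

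How the acute phase genes stood in livers that carried B-lineage transcripts was described by setting the 8 libraries with Cd79a of 8 CPM or more beside the other 18. The split uses a measured value and not a label, so it was not tested. The median was at least 2-fold higher in the 8 libraries for 2 of the 10 members, Lcn2 and Apcs, and at least 2-fold lower for none. Of 12703 genes with a mean of at least 1 CPM, 8.93% were 2-fold higher and 1.82% 2-fold lower. None of the 10 members lay wholly above the other 18 libraries, against 4.35% of all genes, or wholly below, against 0.0157%. The median ratio was 1.17 over the members and 1.07 over all genes.

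Apcs, the pentraxin, ran from 41.7 to 254 CPM with a median of 210 in the 8 libraries, and from 32.9 to 127 with a median of 76.4 in the 18, a ratio of medians of 2.75. Of the 8 libraries 6 exceeded every low-Cd79a library of their own sex. The exceptions were female 12:12 library 7 at 112 CPM and male 12:12 library 5 at 41.7 CPM. Among males alone the medians were 246 and 44.4 CPM, and among females alone 208 and 102 CPM. Lcn2 and Apcs were the members at least 2-fold higher within each sex, where 8.58% of genes in females and 10.2% in males were so placed. No member was without overlap within a sex, where 7.89% of genes in females and 16.1% in males lay wholly above and 1.45% and 1.84% wholly below. Within the 12 CJL libraries Apcs and Lcn2 lay wholly above, against 8.56% of genes.

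Lcn2 ran from 3.33 to 180 CPM with a median of 56.8 in the 8 libraries, and from 1.63 to 95.6 with a median of 11.2 in the 18, a ratio of 5.07. All 8 lay above the median of the low-Cd79a libraries of their sex, and 6 of them by at least 2-fold. The lowest was male 12:12 library 5. The ratio of medians was 18.6 among males and 3.19 among females.

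Neutrophil transcripts moved with the same split. All 9 neutrophil markers with a mean of at least 1 CPM were at least 2-fold higher in the 8 libraries, and the sum of the 12 markers was 20.4 to 474 CPM there against 3.57 to 13.6 CPM in the rest. The defining marker Ly6g reached at most 1.35 CPM in the 8 libraries, had a median of 0 in the 18, and S100a9 ran from 2.9 to 167 CPM against 0.251 to 3.58. Of the B-lineage list 11 of 13 members, among them Cd79a itself, which defined the split, and of the macrophage and Kupffer list 6 of 9 were at least 2-fold higher, the second list summing to 537 to 2400 CPM against 280 to 590. None of the 10 hepatocyte markers was 2-fold different. Female CJL library 2 had the highest Lcn2, 180 CPM, with a neutrophil sum of 23.3 CPM, and female CJL library 5 had the highest neutrophil sum, 474 CPM, with Lcn2 at 74.8 CPM. Male 12:12 library 5 had a neutrophil sum of 21.7 CPM and Lcn2 at 3.33 CPM. Female 12:12 library 5 had a sum of 13.6 CPM and Lcn2 at 95.6 CPM. The part of neutrophils in the Lcn2 level was not tested.

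Hp, the haemoglobin scavenger, was 1746 to 3397 CPM with a median of 2403 in the 8 libraries, and 941 to 2422 with a median of 1512 in the 18, a ratio of 1.59. That ratio was higher than the ratio of 85.2% of the 12703 genes. Each of the 8 lay above the median of the low-Cd79a libraries of its sex, by 1.11- to 2.17-fold, and 5 lay above all of them. Such counts of single libraries, here and for Apcs and Lcn2, were not made over all genes.

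The serum amyloid A genes did not share the higher medians of Lcn2, Apcs and Hp. Saa1 had a median of 16.6 CPM in the 8 libraries and 21.9 in the 18, and Saa2 9.13 and 14.2 CPM. The 8 held both ends of the range: Saa1 was 147 CPM in female CJL library 2 and 103 in male 12:12 library 3, but 8.999 in female 12:12 library 6 and 5.99 in male CJL library 8. That last library had the highest Cd79a, 144 CPM, with Apcs at 246, Hp at 2423 and Itih4 at 3964 CPM. Among males alone the Saa2 median was 0.482 times that of the low-Cd79a libraries, the only member at least 2-fold lower there, against 3.23% of all genes. No member was 2-fold lower among females, against 1.8% of genes.

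The remaining members had ratios of medians between 0.832 and 1.35. Orm1 was at 663 against 703 CPM, Orm2 at 35.8 against 28.2, Itih4 at 3457 against 3202, Socs3 at 2.59 against 1.91 and Saa3 at 2.02 against 2.42. Without female CJL library 2 the Orm2 ratio was 0.759, in place of 1.27. Orm2 spanned 10.6 to 301 CPM within the 8 libraries, wider than its whole range in the 18.

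**Figure D2:**
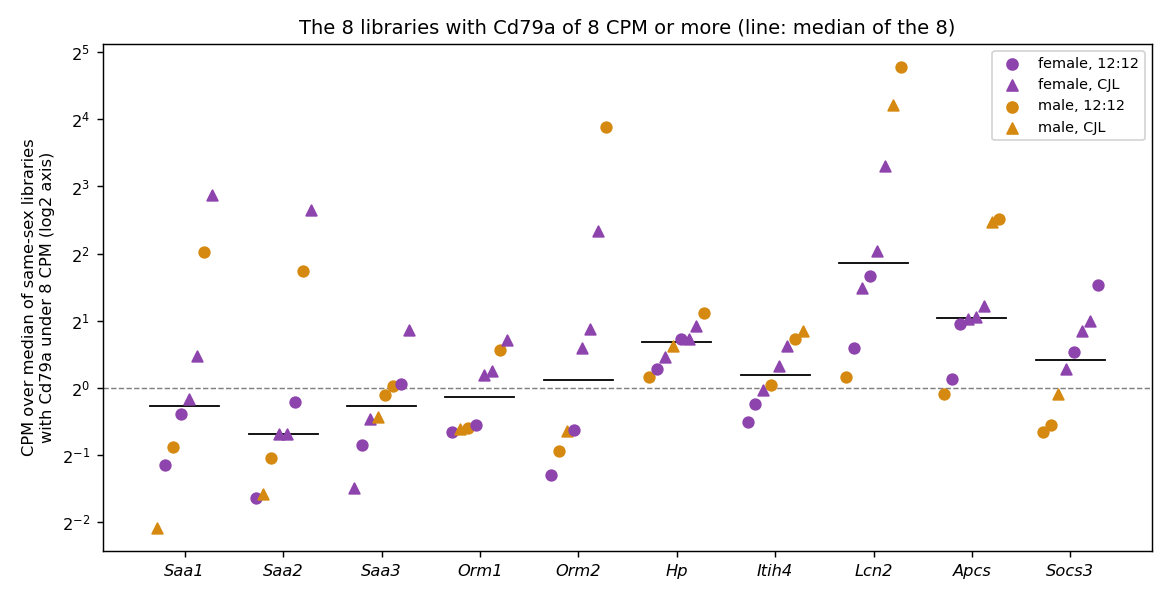
CPM of each gene in the 8 libraries with Cd79a of 8 CPM or more, divided by the median of the low-Cd79a libraries of the same sex (log2 axis, dashed line at equality, black line the median of the 8). All 8 points lie above the line for Hp and Lcn2 and 7 of 8 for Apcs, whereas only 3 of 8 do for Saa1.

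The study asked how CJL changed the liver transcriptome. No acute phase member passed the test between lightings over both sexes, with 12 CJL and 14 12:12 libraries (edgeR quasi-likelihood test, adjusted p threshold of 0.05). The test called 0.781% of 16892 genes. Of the 10 members 1 had an unadjusted p under 0.05, and DESeq2 and limma-voom called none. Members were higher under CJL in 4 cases and lower in 6, with a median log2 fold change of -0.06 against 0.02 over all genes.

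Socs3, the feedback inhibitor, had the smallest p of the members. In females it ran from 1.68 to 5.48 CPM with a median of 2.45 in 12:12 and from 1.06 to 3.76 with a median of 1.82 in CJL. In males it ran from 1.23 to 6.35 CPM with a median of 2.49 in 12:12, and the 4 CJL libraries were at 2.59, 1.38, 1.28 and 2.44 CPM. Both pairs of groups overlapped, and 3 of 12 CJL libraries lay above the 12:12 median of their sex. The log2 fold change was -0.53 (SE 0.25, unadjusted p 0.0448, adjusted p = 0.592 with edgeR). Among the 18 low-Cd79a libraries it was -0.86 (SE 0.24), with an adjusted p of 0.0652 by edgeR, 0.161 by limma-voom and 0.0117 by DESeq2, so the call there depends on the tool. With edgeR it also passed without male 12:12 library 4 (adjusted p = 0.0157), and in the other 17 fits that left out 1 of the 18 libraries it did not. In the authors' deposited table the log2 fold change of Socs3, turned to CJL over 12:12, was -0.56 with an adjusted p of 0.439.

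Saa1 was 22.1 ± 9.68 CPM (SD, n = 8) in 12:12 females and 34.8 ± 45.7 (n = 8) in CJL females, and 50.1 ± 39.1 (n = 6) in 12:12 males and 19.6 ± 9.29 (n = 4) in CJL males. The large CJL female mean came from library 2, as the other 7 lay between 13.04 and 27.9 CPM. None of the 4 CJL males, at 21.3, 25.5, 25.6 and 5.99 CPM, reached the 12:12 male median of 46.3 CPM. That median lay in a gap, as the 12:12 males were at 75.7, 74.8, 103, 17.9, 13.9 and 15.03 CPM. The groups overlapped, with male 12:12 libraries 4, 5 and 6 below male CJL libraries 5, 6 and 7. The log2 fold change was 0.57 (SE 0.54) in females and -1.28 (SE 0.72, adjusted p = 0.569) in males. Without female CJL library 2 the female value was -0.29.

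Orm2 had the lowest fold change in males, -1.91 (SE 0.88, adjusted p = 0.495). The 6 12:12 males ran from 10.6 to 301 CPM with a median of 17.3, and the 4 CJL males were at 12.0, 21.3, 20.5 and 13.1 CPM, inside that range. Without male 12:12 library 3, which held the 301 CPM, the value was -0.41. Orm1 was above the 12:12 female median of 583 CPM in 8 of 8 CJL females, with a range of 610 to 1138 CPM against 440 to 896. Its female log2 fold change was 0.29 (SE 0.20, unadjusted p 0.161 with edgeR), and -0.0062 (SE 0.16) among the low-Cd79a libraries.

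The other members moved little relative to their spread over both sexes. Lcn2 had a log2 fold change of 0.20 (SE 0.63), Apcs 0.29 (SE 0.32), Saa3 -0.30 (SE 0.25) and Saa2 -0.08 (SE 0.46). For the abundant members the SE was smaller, and the values were -0.04 for Hp (SE 0.16), 0.10 for Itih4 (SE 0.12) and 0.15 for Orm1 (SE 0.16). Neutrophil markers, of which 11 were tested, all had positive values under CJL with a median of 1.37 and none passed. The medians of their sum were 8.75 CPM in 12:12 and 10.8 in CJL females, and 6.62 and 6.99 in males. The highest sums were 474 CPM in female CJL library 5, 244 in female 12:12 library 6 and 211 in male CJL library 8, all of high Cd79a. The part of these markers in the Lcn2 value was not tested.

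Within females edgeR called 0% of 16892 genes, within males 0.0118%, and when the response was compared between females and males 0%. No member was called in any of the 3, by edgeR, DESeq2 or limma-voom. Over all genes the number with an unadjusted p under 0.05 was 772 in females and 902 in the test of the difference. DESeq2 called 55 and 0 genes there, and limma-voom none in either. At an unadjusted p under 0.05 there were 0 members in females, 1 in males (Orm2) and 2 in the test of the difference (Orm2 and Saa1). The difference of female minus male response was 2.23 for Orm2 (SE 1.07, adjusted p = 0.814) and 1.85 for Saa1 (SE 0.90, adjusted p = 0.814).

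Among the 18 low-Cd79a libraries edgeR called 2.32% of 16431 genes between lightings and none of the 10 members, where 3 members had an unadjusted p below 0.05. By DESeq2 Socs3 was called. Within females the called share was 0.0791% and within males 1.33%, again with no member called by edgeR. DESeq2 called Socs3 in males (-1.20, adjusted p = 0.0411, against 0.128 with edgeR). Of the 10 members 9 had values below 0 under CJL over both sexes, with a median of -0.51 against 0.0025 over all genes. Members varied together in these libraries, with 11 of 45 pairs correlated, so the 9 are not separate observations. The calls over all genes were 227 higher and 154 lower under CJL, or 301 and 85 with column sums in place of TMM scaling. Saa1 was at -0.76 (SE 0.30, adjusted p = 0.245), Saa2 at -0.63 (SE 0.27) and Lcn2 at -1.06 (SE 0.53, adjusted p = 0.41). Saa1 was 25.4 ± 8.62 CPM (n = 6) in 12:12 and 17.1 ± 2.75 (n = 5) in CJL females, and 45.9 ± 33.97 (n = 4) in 12:12 and 24.1 ± 2.46 (n = 3) in CJL males. The CJL ranges lay within the 12:12 ranges in both sexes.

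**Figure D3:**
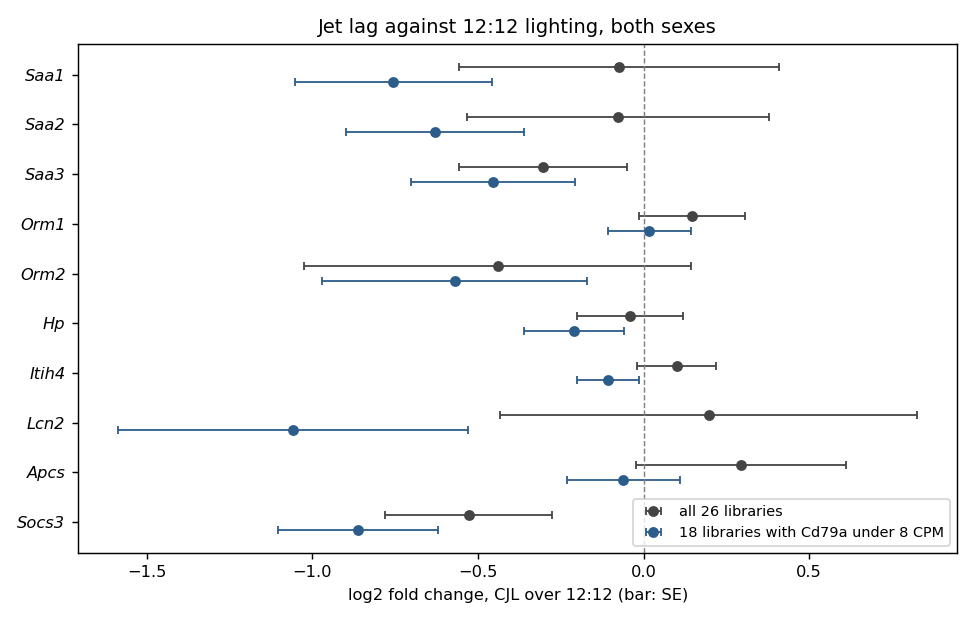
Log2 fold change of CJL over 12:12 for each gene over both sexes, with its standard error as a bar, for all 26 libraries (grey) and for the 18 with Cd79a under 8 CPM (blue). With all libraries the values run from -0.53 to 0.29, and with the 18 all but that of Orm1 are below 0; none passed the edgeR threshold.

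Other genes of the response gave few calls between lightings over both sexes. Of 27 other positive acute phase genes tested none passed with edgeR, and their median log2 fold change was 0.09. The fibrinogen chain genes had the smallest p, with Fgg at 0.38 (SE 0.11, adjusted p = 0.138), Fga at 0.31 (SE 0.11) and Fgb at 0.31 (SE 0.12). None of 15 negative acute phase genes, such as those for albumin and transthyretin, 12 cytokine and receptor genes or 15 transducer genes passed. Among 9 STAT targets with feedback roles 1 passed: Il4ra, a receptor chain for interleukin 4, rose by a log2 value of 0.39 (SE 0.09, adjusted p = 0.0473). Il6 itself reached at most 0.162 CPM in any library.

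Between the sexes, no member passed over all 26 libraries in edgeR, DESeq2 or limma-voom, while edgeR called 9.13% of all genes, 789 higher and 753 lower in females. Of the 10 members 1 had an unadjusted p under 0.05. Without the 8 libraries of high Cd79a, 4 of 10 members passed, 3 higher and 1 lower in females, where edgeR called 19.4% of 16431 genes, 1761 higher and 1427 lower. When each of the 18 libraries was left out in turn, Apcs and Itih4 passed in all 18 fits, Lcn2 in 11 and Hp in 8. With plain column sums in place of TMM scaling those calls were 1704 and 349 over all libraries and 3178 and 721 over the 18, and the median gene moved from -0.02 to 0.12 and from 0.02 to 0.16 on the log2 scale.

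Apcs ran from 63.1 to 127 CPM with a median of 102 in the 11 low-Cd79a females and from 32.9 to 74.4 with a median of 44.4 in the 7 males. The ranges overlapped between 63.1 and 74.4 CPM. The log2 fold change of females over males was 0.98 (SE 0.18, adjusted p = 0.000537 with edgeR). Over all 26 libraries it was 0.45 (SE 0.33, adjusted p = 0.461), with the 2 males of highest Apcs, 254 and 246 CPM, among those of high Cd79a.

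Lcn2 ran from 9.91 to 95.6 CPM with a median of 18.3 in the 11 females and from 1.63 to 23.3 with a median of 2.99 in the 7 males. The log2 fold change was 1.79 (SE 0.56, adjusted p = 0.0342 with edgeR), against 0.99 (SE 0.67, adjusted p = 0.413) over all 26 libraries. The call among the 18 was lost, at adjusted p from 0.0565 to 0.0809, without female 12:12 library 5, without male 12:12 library 1, 4 or 6, and without male CJL library 5, 6 or 7. The neutrophil marker sum in the same libraries was 5.86 to 13.6 CPM in females and 3.57 to 7.29 CPM in males, and its part in the Lcn2 difference was not tested. Itih4 was 3376 ± 343 CPM (n = 11) in females and 2379 ± 338 (n = 7) in males, with a log2 fold change of 0.37 (SE 0.10, adjusted p = 0.00906). Over all 26 libraries it was 0.23 (SE 0.12, adjusted p = 0.26).

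Hp went the other way, at 1449 ± 338 CPM (n = 11) in females and 1799 ± 395 (n = 7) in males. Its log2 fold change was -0.45 (SE 0.15, adjusted p = 0.0431) and -0.31 (adjusted p = 0.116) with column sums. The call was also lost, at adjusted p from 0.0531 to 0.0983, without female 12:12 library 1, 2, 4 or 8, without female CJL library 1, 7 or 8, without male 12:12 library 1 or 2, and without male CJL library 7. Saa1 had a value of -0.85 (SE 0.29) that missed the threshold in edgeR (adjusted p = 0.0506) and limma-voom (0.148) and passed in DESeq2 (0.0316). Socs3 had a value of -0.65 (SE 0.24) that missed it in edgeR (adjusted p = 0.061) and limma-voom (0.175) and passed in DESeq2 (0.0311). The remaining Orm1, Orm2, Saa2 and Saa3 did not pass by any of the 3 tools.

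**Figure D4:**
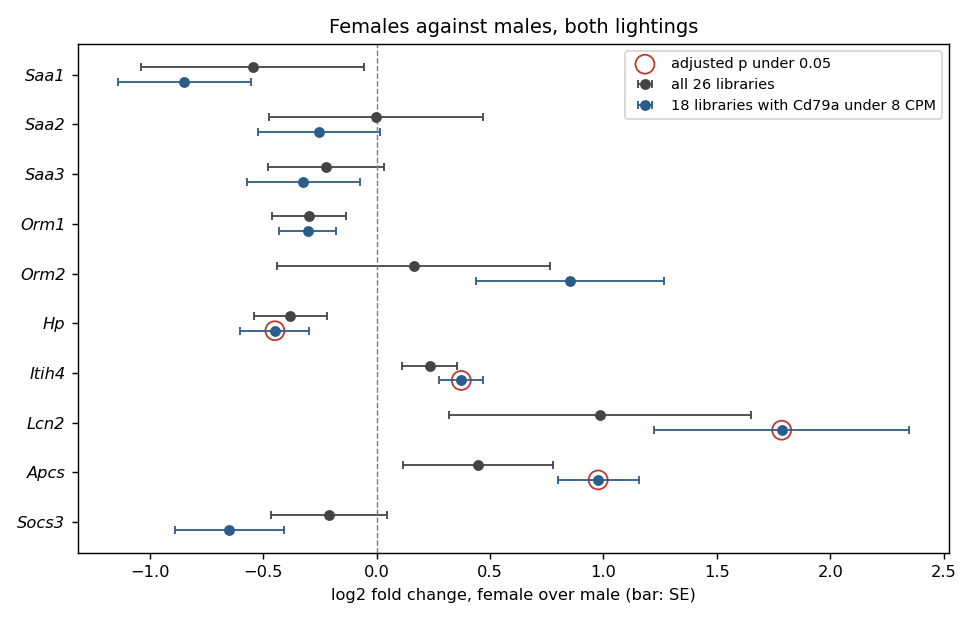
Log2 fold change of females over males for each gene, with its standard error as a bar, for all 26 libraries (grey) and for the 18 with Cd79a under 8 CPM (blue), circled where the edgeR adjusted p was under 0.05. No grey point is circled, and 4 blue points are: Itih4, Lcn2 and Apcs to the right and Hp to the left. Those of Lcn2 and Hp passed in 11 and 8 of the 18 fits that left out 1 library.

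Of the 27 other positive acute phase genes, set against the 9.13% of all genes that edgeR called, 4 were higher in females over all 26 libraries, Il1rn (1.62, SE 0.24), Orm3 (1.24, SE 0.33), Cd14 (0.76, SE 0.23) and C3 (0.41, SE 0.13). In the other direction 2 were lower, Serpina3k (-0.99, SE 0.22) and Saa4 (-0.71, SE 0.21). Il1rn encodes the interleukin 1 receptor antagonist and C3 the central complement component. The list's median was 0.03 against -0.02 over all genes. Among 12 cytokine and receptor genes Il1rap, the shared chain of interleukin 1 receptors, was lower in females (-0.62, SE 0.13, adjusted p = 0.00192 with edgeR) and none was higher, a share of the list near that of all genes. Of the T and NK cell markers 4 of 10 were also higher in females, their sum being 4.75 to 8.74 CPM in females and 2.25 to 5.74 in males, and their part in these values was not tested.

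Pairs of members were then compared across the 26 livers on the log2(CPM + 1) scale. Of 45 pairs 15 had a Pearson correlation with an adjusted permutation p under 0.05, and none of the 15 was negative. With group means removed 21 pairs passed, and among the 18 low-Cd79a libraries 11. The values for the 18 pool the sexes and lightings, and group means were not removed there. Saa1 and Saa2 gave r = 0.91 and rho = 0.76 (adjusted permutation p 0.000112 and 0.000225), and r = 0.85 without the 2 farthest libraries. Those are the 2 libraries farthest from the median of the first gene named in a pair. Orm1 and Orm2 gave r = 0.78 (rho 0.68), and Saa1 and Orm1 r = 0.79 (rho 0.74), 0.62 and 0.66 without the 2 farthest libraries. Among the 18 low-Cd79a libraries Saa1 gave r = 0.82 with Saa2 and 0.58 with Orm1, and both passed. There r was 0.50 for Orm1 and Orm2, 0.47 for Saa2 and Orm1, 0.53 for Saa2 and Orm2 and 0.29 for Saa1 and Orm2. None of these passed (adjusted permutation p from 0.0723 to 0.411). Paralogs may share reads, which was not tested.

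Lcn2 and Apcs gave r = 0.90 and rho = 0.86 (adjusted permutation p 0.000112 and 0.000225), 0.88 without the 2 farthest libraries, 0.73 in females, 0.96 in males and 0.80 among the low-Cd79a libraries. Itih4 gave r = 0.79 with Lcn2 and 0.77 with Apcs, and within the sexes 0.45 and 0.31 in females against 0.95 and 0.95 in males. Hp gave r = 0.56 with Lcn2 and 0.51 with Apcs over all libraries, and 0.83 and 0.80 with group means removed. Among the 18 of low Cd79a, with the sexes pooled, r was 0.13 and -0.07. In those 18 Hp was lower in females, whereas Lcn2 and Apcs were higher. Values of r within each sex were not computed for the 18. Hp gave r = 0.75 with Saa1 in the same 18 libraries (adjusted permutation p 0.00247). Both genes had negative log2 fold changes of females over males there, and the sexes were again pooled. Saa1 and Apcs gave r = 0.08 over all 26. Saa1 and Hp, with r = 0.49 (rho 0.39) over all 26, gave 0.21 without the 2 farthest libraries. With 0.75 among the 18, the value for this pair depends on which libraries are included. Saa3 and Socs3 were in none of the 15 pairs.

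**Figure D5:**
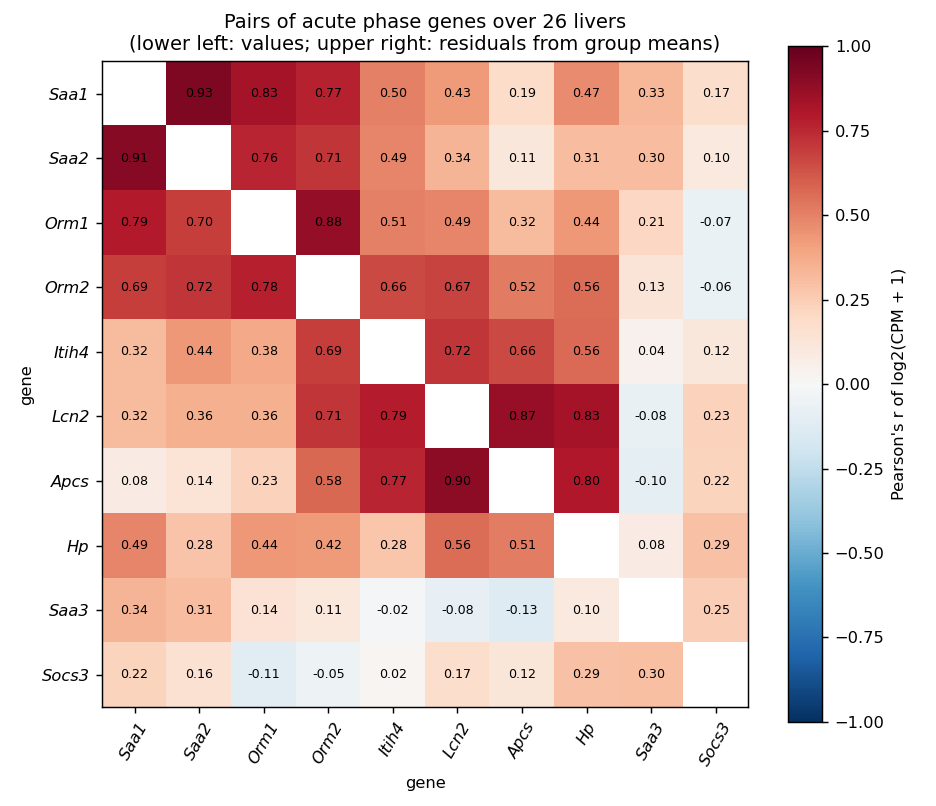
Pearson's r of log2(CPM + 1) for each pair of acute phase genes over the 26 livers (lower left) and of residuals from the 4 group means (upper right). A block of Saa1, Saa2, Orm1 and Orm2 with r from 0.69 to 0.91 and a block of Itih4, Lcn2 and Apcs with r from 0.77 to 0.90 stand out. Orm2 also gave r from 0.58 to 0.71 with the second block, and Saa3 and Socs3 were in none of the 15 called pairs. Among the 18 low-Cd79a libraries, not drawn here, r ran from 0.29 to 0.82 in the first block and from 0.80 to 0.92 in the second. Those values pool the sexes, and Itih4, Lcn2 and Apcs were each higher in females in the 18. The part of sex in these values was not tested.

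The genes most like the members as a group were found by Spearman's rho with the mean of the 10 scaled log2(CPM + 1) values, over 26 libraries and 12693 other genes with a mean of at least 1 CPM. They were C3 (0.82), Fgl1 (0.77), Cfi (0.75), Cd302 (0.66), Cdon (0.66), Tmem176b (0.66), Cfb (0.64), Serpina3n (0.64), Itih3 (0.64) and Hpx (0.63). C3, Cfi and Cfb encode complement proteins, Hpx the heme binding protein hemopexin, and Itih3 another heavy chain of the Itih4 family. Depth and scaling are shared by all genes of a library, so these values are a description.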

How the data were processed

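Stranded mRNA libraries of 26 livers were read on a DNBSEQ machine, per the labels. Expected counts per gene name were deposited without scaling. A placeholder of 0.015 filled 45.8% of cells and was set to 0, and values were rounded because 1.44% of cells were not whole (tolerance 1e-06). The 36930 lines gave 36883 names after lines of 1 name were summed. The submitters' processing notes name STAR, DESeq2 and mm10. For the counter, its annotation and its strand setting, nothing was given in the sources. The authors' normalized signal was the count times 1 constant per library in 99.97% of cells (relative tolerance 0.001), and was used only for that check. The authors' deposited DESeq2 table holds a Wald score, p-values before and after adjustment, and log2 fold changes with their errors, of which only those of Socs3 are quoted.

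CPM was the count over the library total. Genes passing filterByExpr by group (count minimum 10) were scaled by TMM and tested by quasi-likelihood F tests in edgeR 4.0.16 (R 4.3.3), with Benjamini-Hochberg adjustment over all genes. A model of sex and lighting gave the comparisons over both sexes and between the sexes, and a model of 4 group means the others, all over 26 libraries. The SE of a fold change is its size over the square root of F. The fit was first run on simulated data. DESeq2 1.42.0, limma 3.58.1 (voom), other scalings, no filter, a replicate block, single sexes, the 18 libraries with Cd79a under 8 CPM, and each library left out were alternatives. Joining the set of 18 to another tool or scaling, or leaving out 1 of the 18, was chosen after seeing the data. Correlations used 100000 permutations (scipy 1.17.1, Python 3.11.15), whose smallest p is 1e-05.

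The members, lists and tests were chosen with earlier results of these data known. All 10 members are named, with up to 4 genes per list by smallest p between lightings over both sexes, Cd79a, and the 10 genes most like the members. Other genes were named after their values were seen. Gene positions and transcripts came from GENCODE on GRCm38, the assembly of mm10, and promoters from RefSeq on GRCm38.p6, where 8 of 10 members matched. A comparison of proteins was not made here.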

Additional observations from a re-analysis of the deposited data

Results flagged for a closer look

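Of 40 sets of 1 gene in 1 group, 10 held a library whose gap to its nearest neighbour, on the log2(CPM + 1) scale, was a larger share of the group's range than Dixon's 95% critical value. Chance gives about 1 in 20 for independent sets of normally distributed values. Here members varied together and the share over all genes was not counted, so the 10 of 40 has no measured background. In 8 of the 10 the library had Cd79a of 8 CPM or more. Female CJL library 2 stood above the other 7 for Saa1 (147 CPM against 13.04 to 27.9), Saa2 (92.5 against 8.61 to 16.8) and Orm2 (168 against 25.9 to 60.6). Male CJL library 8 stood below the other 3 for Saa1 (5.99 CPM against 21.3 to 25.6) and above them for Itih4 (3964 against 2196 to 2334) and Apcs (246 against 32.9 to 44.9). Female 12:12 library 6 was low for Saa2 (4.72 CPM against 12.6 to 21.4), and female 12:12 library 7 was high for Socs3 (5.48 against 1.68 to 2.98). The libraries with low Cd79a were female 12:12 library 5, high for Orm2 (159 CPM against 13.5 to 35.9), and male 12:12 library 2, high for Saa3 (7.75 against 1.57 to 2.55).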

How the results depend on the processing

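The number of acute phase members called between lightings was 0 in the alternatives run, except without the 8 libraries of high Cd79a, where DESeq2 called 1 over both sexes and 1 in males, and edgeR called 1 over both sexes without male 12:12 library 4 (Socs3 each time). Between the sexes it was 0 over 26 libraries under each tool, scaling and filter. Without the high-Cd79a libraries it was 4 with edgeR, 4 with limma-voom, 6 with DESeq2 and 3 with column sums. In the Cd79a split 2 members were 2-fold higher throughout, and 1 was 2-fold lower among males only. Leaving out 1 of all 26 libraries at a time kept 0 members called in each comparison, and 2 higher and 0 lower in the split. Leaving out 1 of the 18 low-Cd79a libraries gave 2 to 5 members called between the sexes and 0 to 1 between lightings over both sexes, where the calls over all genes were 164 without female CJL library 3. Leaving out 1 library was not run for the other fits of these 18 or for the split among males. Over all genes the calls between lightings were 132, and 274 with DESeq2 and 381 without the high-Cd79a libraries; in females 0 and 55 with DESeq2, or 13 without those libraries; in males 2, 94 with DESeq2 and 219 without those libraries; between the sexes 1542 and 3188 without them. Left out 1 at a time, libraries gave 70 to 244 calls between lightings over both sexes, with 70 without female CJL library 3, 73 without female 12:12 library 8, 76 without male 12:12 library 2, 82 without male 12:12 library 5 or male CJL library 5, 85 without female 12:12 library 4, 87 without male 12:12 library 4 or female CJL library 2, 214 without male 12:12 library 3 and 244 without male CJL library 8. Uncalled log2 fold changes changed sign as follows, and the cause was not tested. Without the high-Cd79a libraries, over both sexes Itih4 was -0.11, Lcn2 -1.06 and Apcs -0.061; in females Saa1 was -0.64, Saa2 -0.39, Orm1 -0.0062, Orm2 -0.62, Hp -0.25, Itih4 -0.078 and Lcn2 -0.77; in males Orm1 was 0.054, Itih4 -0.15 and Apcs -0.22. Whether replicate numbers pair the libraries is not stated in the labels, and the main fits did not use them as pairs. Correlations of same-numbered deviations ran from -0.38 to 0.60. They cannot decide the question, because differently numbered libraries were not compared. With the replicate block the calls were 111 over both sexes, 19 in females, 4 in males and no member. The block gave Saa1 0.30, Saa2 0.20, Orm2 0.56 and Hp 0.0019 over both sexes, Hp -0.00376 in females, and Saa1 0.72, Saa2 0.61, Saa3 0.14, Orm1 0.28, Orm2 0.58 and Hp 0.024 in males. limma-voom gave Orm2 0.038 over both sexes, Hp -0.00285 in females and Saa2 0.088 between the sexes. Saa2 between the sexes was 0.16 with column sums and 0.0065 with no filter, and Itih4 in males -0.00885 with no filter and -0.021 in males fitted alone. Left out 1 at a time, the range over both sexes was -0.67 to 0.12 for Saa1, -0.66 to 0.10 for Saa2, -0.78 to 0.064 for Orm2, -0.11 to 0.014 for Hp and -0.24 to 0.62 for Lcn2, lowest in each case without female CJL library 2. In females it was -0.29 to 0.72 for Saa1, -0.32 to 0.67 for Saa2, -0.14 to 1.07 for Orm2, -0.092 to 0.12 for Hp and -0.11 to 1.10 for Lcn2. In males it was -0.74 to 0.11 for Saa3, -0.31 to 0.059 for Orm1, -0.16 to 0.089 for Itih4, -2.53 to 0.75 for Lcn2 and -0.86 to 0.87 for Apcs. Between the sexes it was -0.33 to 0.19 for Saa2, -0.31 to 0.083 for Saa3, -0.26 to 1.14 for Orm2 and -0.29 to 0.013 for Socs3. Depth was similar in all libraries, and Saa3 and Socs3, near 2 CPM, were the members with the fewest counts.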

Other observations

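Metallothionein genes, which are induced in liver by metals, glucocorticoids and interleukin 6, had higher medians but overlapping ranges in the livers with B-lineage transcripts. Mt1 was 32.5 to 1044.5 CPM with a median of 584 in the 8 libraries with Cd79a of 8 CPM or more, and 4.31 to 501 with a median of 118 in the other 18. Mt2 was 3.98 to 588 CPM with a median of 266, against 0.502 to 241 with a median of 39.1. They were the 2 of 27 other positive acute phase genes at least 2-fold higher, and none was 2-fold lower, against 8.93% and 1.82% of all genes. The share of the list that was higher was thus near that of all genes. None of 15 negative acute phase genes and none of 15 transducer genes was 2-fold different.

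Transcripts of the oncostatin M receptor, Osmr, which takes up a cytokine of the interleukin 6 family, were 3.37 to 7.72 CPM with a median of 5.46 in the 8 libraries and 0.893 to 4.21 with a median of 2.52 in the 18. The ligand gene Osm was 0.125 to 1.08 CPM in the 8 and 0 to 0.0626 CPM in the 18, near the limit of 3 counts. Il6 did not pass 0.106 CPM in the 8 or 0.162 CPM in the 18. Cdkn1a, a cell cycle inhibitor gene counted among STAT targets, had medians of 1.64 and 0.476 CPM. Osmr was the 1 of 10 cytokine and receptor genes and Cdkn1a the 1 of 7 STAT targets at least 2-fold higher, against the same 8.93% of all genes. The libraries were set apart by a measured value, so these are descriptions without a test.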
